A study of Homo sapiens with 6 samples.

Results

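The genes examined were 10 of the cGAS-STING DNA sensing pathway and its restraint, out of 62492 genes listed in each library. They were CGAS, STING1, TBK1, IKBKE, TREX1, SAMHD1, IFI16, RNASEH2A, RNASEH2B and RNASEH2C. Their values were looked up by gene symbol, and each symbol matched 1 gene. RNA-seq of polyadenylated RNA had been carried out in HCT116, an established human colorectal carcinoma line with a wild-type genotype label. The cells received a control siRNA (siControl) or an siRNA against NONO (siNONO) at 20 nM, with 3 libraries per group, labelled as Sets 1, 2 and 3. Both groups were transfected with siRNA by lipofection, and neither an untransfected group nor a second siRNA against NONO was analysed here. Values below are listed in the order of Sets 1, 2 and 3.

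The cytosolic enzyme cGAS binds double-stranded DNA and makes the cyclic dinucleotide cGAMP, which binds STING on the endoplasmic reticulum. STING then moves to the Golgi and recruits the kinases TBK1 and IKKε (the product of IKBKE), and TBK1 phosphorylates the transcription factor IRF3, which switches on interferon genes. The nucleases TREX1 and RNase H2 and the deoxynucleotide hydrolase SAMHD1 keep self nucleic acid low, and inherited loss of any of them causes Aicardi-Goutières syndrome, an interferon disease. NONO, a nuclear protein that binds RNA and DNA, is known as a partner of cGAS in the nucleus of HIV-infected dendritic cells.

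The total estimated count ran from 21765393 to 32659002 per library. NONO itself was at 363, 330 and 407 TPM (RSEM's level of a transcript, scaled for length and depth) in siControl and at 75.7, 75.5 and 81.7 TPM in siNONO, so the libraries stood apart as labelled. The epithelial markers EPCAM, CDH1, KRT8, KRT18, KRT19 and CLDN4 were expressed, and VIL1 had 1 to 7 counts per library. Of these, EPCAM and KRT19 were higher in siNONO, with log2 fold changes of 0.32 (adjusted p = 3.52e-06) and 0.14 (adjusted p = 0.00731 by edgeR's quasi-likelihood test), and the other 4 tested were not called. The leukocyte and stromal markers PTPRC, CD3E and DCN had 0 to 2 counts per library, CD14 had 1 to 6 and LYZ 3 to 15, PECAM1 was not matched, and COL1A1 had 896 to 1257 counts. COL1A1 did not pass the test between groups (log2 fold change 0.02, adjusted p = 0.790). Since RNA was pooled over cells, a change in all cells and a larger change in some of them cannot be told apart.

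In siNONO, on counts, RNA of the adaptor gene STING1 was lower and that of SAMHD1 2.05-fold higher. Within RNase H2, the catalytic subunit gene RNASEH2A was lower. RNASEH2C was slightly higher on counts, a call that was lost with DESeq2 and with limma on log2(TPM + 1). The genes of both kinases and TREX1 did not pass the test. Transcripts of the sensor gene CGAS were close to 0 in every library of both groups. Of the 10 genes, 8 had enough counts for edgeR's quasi-likelihood test, which took the Set as a block over 17000 genes and adjusted p-values by Benjamini-Hochberg over all of these. At an adjusted p of at most 0.05, 2 of these 8 were higher and 2 were lower in siNONO, or 25% in each direction. Over all genes tested, 23.2% were higher and 23.4% were lower, so the shares among the 8 were close to those of the whole transcriptome. The median log2 fold change of the 8 genes was 0.04, and that of all genes tested was -0.0048.

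**Figure D1:**
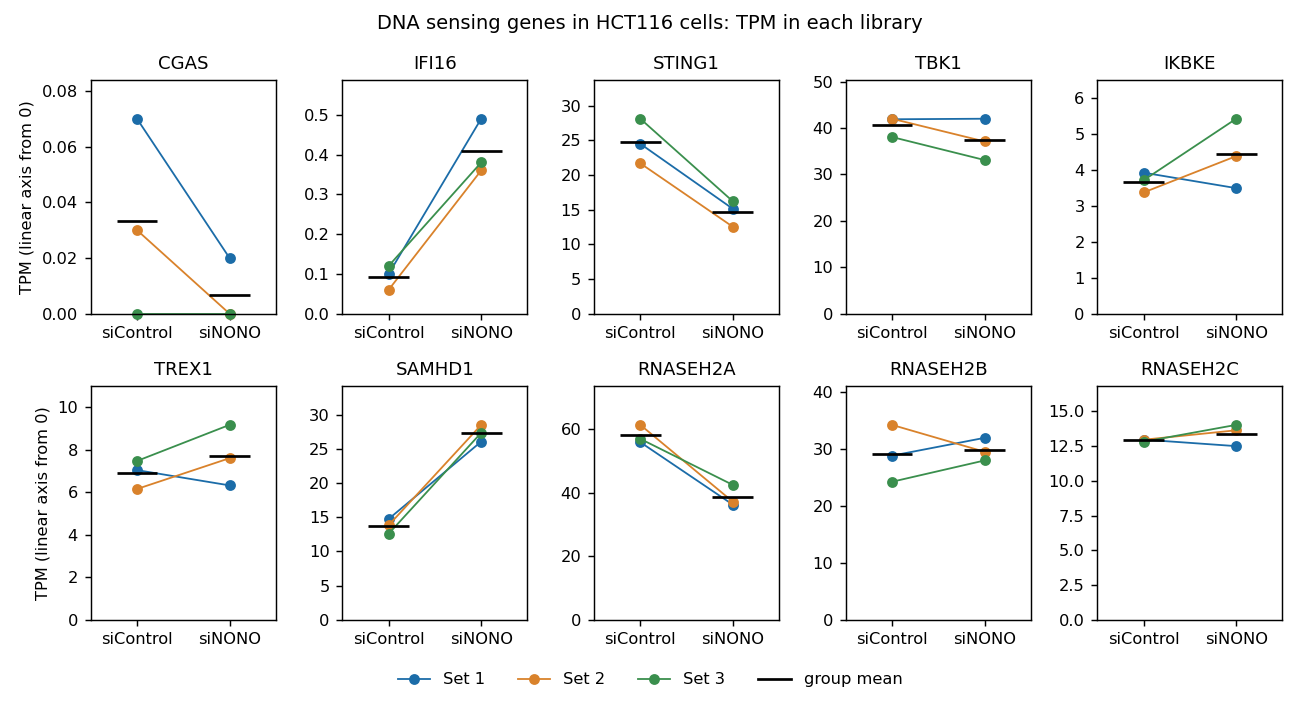
Level of each of the 10 genes in TPM (vertical axes, each starting at 0) in siControl and siNONO, with 1 point per library lines joining the libraries of a Set and black bars at the group means. STING1 and RNASEH2A were lower and SAMHD1 was higher in siNONO in each Set, CGAS was at or below 0.07 TPM throughout, and the levels of TBK1 overlapped between groups.

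Promoter sequences of 300 bases, from 250 before to 50 after the transcription start, were taken from RefSeq (GRCh38.p14) and placed on GRCh37 by exact match. They were found for 8 of the 10 genes, the others being CGAS and STING1. Those printed are of SAMHD1 and RNASEH2A, which changed in opposite directions. They lie at chr20:35580062-35580361 on the minus strand and chr19:12917148-12917447 on the plus strand, each is written 5′ to 3′, and capitals mark CG dinucleotides.
SAMHD1: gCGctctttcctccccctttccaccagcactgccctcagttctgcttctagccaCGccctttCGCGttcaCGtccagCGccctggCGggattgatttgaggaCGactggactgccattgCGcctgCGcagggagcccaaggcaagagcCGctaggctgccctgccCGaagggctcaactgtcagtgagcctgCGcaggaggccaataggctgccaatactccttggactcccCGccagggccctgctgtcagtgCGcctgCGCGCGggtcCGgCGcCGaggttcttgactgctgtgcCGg
RNASEH2A: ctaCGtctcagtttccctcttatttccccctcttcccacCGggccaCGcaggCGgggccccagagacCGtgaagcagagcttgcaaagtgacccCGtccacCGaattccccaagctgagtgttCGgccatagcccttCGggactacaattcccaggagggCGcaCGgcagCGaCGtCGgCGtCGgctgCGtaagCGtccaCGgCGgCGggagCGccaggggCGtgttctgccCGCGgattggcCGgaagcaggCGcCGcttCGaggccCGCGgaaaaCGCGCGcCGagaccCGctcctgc
The SAMHD1 promoter held 22 CG dinucleotides and that of RNASEH2A 36. Over 35116 RefSeq promoters of the same length the median was 14, with quartiles of 4 and 28. The promoters of TBK1, RNASEH2C, RNASEH2B, IKBKE and TREX1 held 35, 18, 14, 5 and 3. The window of IFI16 held 1, and its RefSeq start lies inside the gene as GENCODE lists it, so other starts of IFI16 were not covered. Both strands of the 8 promoters were searched for the interferon response core GAAANNGAAA and for the E2F letters TTTCCCGC and TTTGGCGC, and none held a match. Of all promoters, 3.57% held the first, 1.63% the second and 0.652% the third.

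Among the sensors, CGAS encodes the enzyme that makes cGAMP and lies on the minus strand of chromosome 6 of GRCh37, from 74123238 to 74162020. It had 2, 1 and 0 estimated counts in siControl and 1, 0 and 0 in siNONO. The sums of 3 and 1 counts have 95% Poisson intervals of 0.619 to 8.77 and 0.0253 to 5.57, which cover counting error only. Both sums are at or under the limit of 3 counts that a count of 0 allows, so no fold is given. That limit corresponded to 0.0919 to 0.138 CPM (counts scaled to library size) per library. Counts this low could not show a fall of CGAS, and its groups overlapped. DDX43, a gene on the opposite strand that overlaps CGAS, was at 0 to 3 counts.

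IFI16, which encodes a PYHIN protein that binds DNA and is known to cooperate with cGAS and STING, lies on the plus strand of chromosome 1 from 158969758 to 159024945. Its counts were 2, 1 and 3 in siControl against 15, 9 and 14 in siNONO. The groups did not overlap, and even the highest library was low, at 0.49 TPM. The summed count per depth was 6.11 times that of siControl (95% interval 2.56 to 17.7, counting error only). IFI16 had too few counts for the filter of the test. Without that filter, the log2 fold change of IFI16 was 2.56 (SE 0.694, adjusted p = 0.00126 by Benjamini-Hochberg in edgeR's quasi-likelihood test). The unfiltered fit gave smaller adjusted p-values for the called members too, such as 1.05e-97 against 2.81e-09 for SAMHD1. Its p-values are thus not on the scale of the filtered test.

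STING1, the gene of the cGAMP-binding adaptor, lies on the minus strand of chromosome 5 from 138855118 to 138862520. It was at 24.5, 21.7 and 28.1 TPM in siControl and at 15.1, 12.5 and 16.2 TPM in siNONO. Every siNONO library was below every siControl library, with means of 24.8 ± 3.22 and 14.6 ± 1.89 TPM (SD, n = 3). Its level was 1.59-fold lower in siNONO, with a log2 fold change of -0.67 (standard error 0.0567, adjusted p = 9.87e-07 by Benjamini-Hochberg in edgeR's quasi-likelihood test). The change was -0.66, -0.75 and -0.61 in the 3 Sets. It ranked at percentile 4.76 of the log2 fold changes of all genes tested, counted from the lowest.

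Of the kinases, TBK1 phosphorylates both STING and IRF3, and its gene lies on the plus strand of chromosome 12 from 64845870 to 64895894. It was at 41.9, 42.0 and 38.1 TPM in siControl and at 42.0, 37.1 and 33.1 TPM in siNONO, and the groups overlapped. Its log2 fold change was -0.02, with a 95% interval of -0.11 to 0.073 and an adjusted p of 0.746 by the same test. On counts, this interval leaves room for only a small change of TBK1 RNA in either direction. On the TPM scale, limma on log2(TPM + 1) gave -0.12 (adjusted p = 0.160), just outside the interval.

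IKBKE encodes the related kinase IKKε and lies on the plus strand of chromosome 1 from 206643819 to 206670222. It was at 3.92, 3.37 and 3.71 TPM in siControl and at 3.49, 4.38 and 5.42 TPM in siNONO. The groups overlapped, since Set 1 moved down and Sets 2 and 3 moved up, with log2 fold changes of -0.15, 0.45 and 0.32. Over the Sets it was 0.21 (95% interval -0.046 to 0.46, adjusted p = 0.170 by edgeR's quasi-likelihood test). With the Set as a block, leaving out either library of Set 1 takes that Set out of the comparison. The log2 fold change was then 0.39, with an adjusted p of 0.0166 without the siControl library and 0.0177 without the siNONO library. Both leave-outs are thus a single check, by which the absence of a call rests on Set 1. TBK1 exceeded IKBKE in TPM by 10.7, 12.5 and 10.3 times in siControl and by 12.0, 8.47 and 6.11 times in siNONO. These ratios overlapped (two-sided exact permutation test over the 6 libraries, p = 0.3, where 0.1 is the smallest p that 3 against 3 libraries can give).

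**Figure D2:**
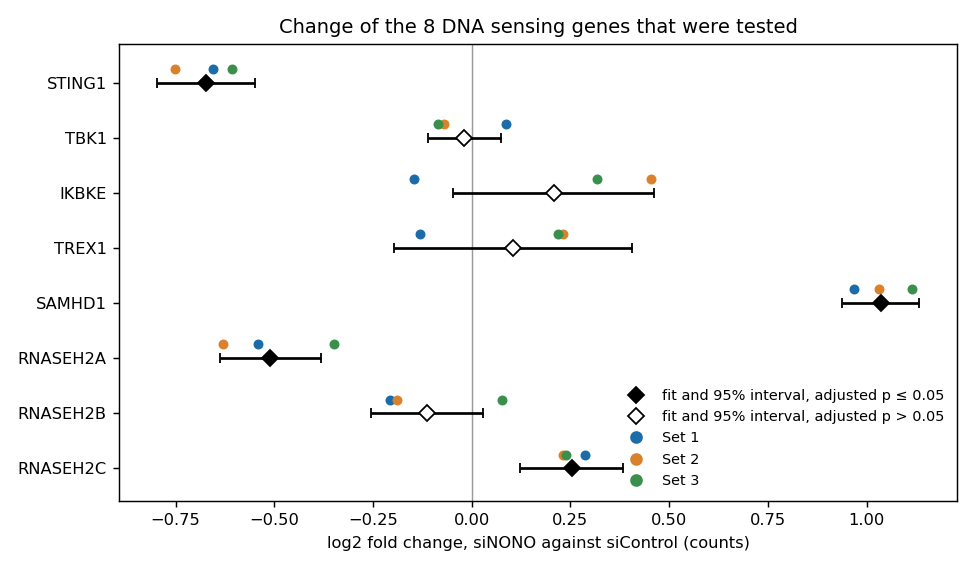
Log2 fold change of siNONO over siControl (horizontal axis) for the 8 genes tested, with diamonds for the fitted value (filled where the adjusted p is at most 0.05), bars for its 95% interval and coloured points for the value within each Set. The intervals of SAMHD1 and RNASEH2C lie above 0, those of STING1 and RNASEH2A lie below 0, and those of TBK1, IKBKE, TREX1 and RNASEH2B include 0.

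TREX1, the main cytosolic 3′ DNA exonuclease, lies on the plus strand of chromosome 3 from 48507210 to 48509044. It was at 7.05, 6.16 and 7.48 TPM in siControl and at 6.33, 7.61 and 9.18 TPM in siNONO, with overlapping groups. The log2 fold change was 0.10 (95% interval -0.20 to 0.41, adjusted p = 0.575 by the same test). All 1835 bases of TREX1 lie within ATRIP on the same strand, and its estimated count was not whole in any of the 6 libraries, so the split of reads between these genes is uncertain. ATRIP, which encodes the partner of the ATR checkpoint kinase, had a log2 fold change of -0.03 (adjusted p = 0.694).

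SAMHD1 encodes a hydrolase that lowers the deoxynucleotide pool and takes part in DNA repair at stalled forks. It lies on the minus strand of chromosome 20 from 35518632 to 35580296. It was at 14.8, 13.8 and 12.6 TPM in siControl and at 26.1, 28.5 and 27.4 TPM in siNONO. The groups were far apart, with means of 13.7 ± 1.08 and 27.3 ± 1.23 TPM (SD, n = 3). The fitted log2 fold change was 1.04, with a standard error of 0.0448 and an adjusted p of 2.81e-09 by Benjamini-Hochberg in edgeR's quasi-likelihood test, at percentile 98.3 of all genes tested. Its estimated count was not whole in 4 of the 6 libraries, so some of its reads were shared with other genes. Each Set showed the rise, by 0.97, 1.03 and 1.12 on the log2 scale. Of the 8 genes tested, SAMHD1 was the only one to change by at least 1 on that scale. At an adjusted p of at most 0.05, 489 of the 17000 genes did so. The ratio of SAMHD1 to STING1 in TPM went from 0.562 ± 0.101 to 1.90 ± 0.329 (SD, n = 3), so the gene that had been the lower of the pair in each siControl library was the higher in each siNONO library.

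RNase H2, which cuts RNA from RNA-DNA hybrids and removes single ribonucleotides from DNA, consists of the catalytic subunit RNASEH2A and the auxiliary subunits RNASEH2B and RNASEH2C. RNASEH2A, on the plus strand of chromosome 19 from 12917398 to 12924454, was at 55.9, 61.3 and 56.9 TPM in siControl and at 36.2, 37.1 and 42.4 TPM in siNONO. The groups did not overlap, and on counts the level was 1.42-fold lower in siNONO. The log2 fold change of RNASEH2A was -0.51 (SE 0.0588, adjusted p = 1.51e-05 by Benjamini-Hochberg in edgeR's quasi-likelihood test), and it was -0.54, -0.63 and -0.35 in the 3 Sets. The whole of RNASEH2A lies opposite HOOK2, which had 1242 to 1748 counts per library, and the setting for strand in the counting is not given in the sources used here. THSD8, on the same strand, overlaps it over 6998 bases and had 2.05 to 6.14 counts. The estimated count of RNASEH2A was not whole in any of the 6 libraries, so its share of reads is uncertain to that extent.

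RNASEH2B, on the plus strand of chromosome 13 from 51483883 to 51598256, was at 28.8, 34.2 and 24.2 TPM in siControl and at 31.9, 29.5 and 28.0 TPM in siNONO. The groups overlapped, and the log2 fold change of the counts was -0.11 (95% interval -0.25 to 0.027, adjusted p = 0.175). Sets 1 and 2 gave -0.21 and -0.19, and Set 3 gave 0.08. On the TPM scale the sign turned, to 0.045 with limma on log2(TPM + 1) (adjusted p = 0.735), so no direction is given for RNASEH2B. Leaving out either library of Set 3 takes that Set out of the blocked comparison. The value was then -0.20 (adjusted p = 0.0178 without the siControl and 0.0139 without the siNONO library, by edgeR's quasi-likelihood test). By this single check, Set 3 decided that RNASEH2B was not called.

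RNASEH2C, on the minus strand of chromosome 11 from 65481476 to 65488289, was at 16.7 ± 1.18 CPM in siControl and 19.9 ± 1.21 CPM in siNONO (SD, n = 3). On counts, siNONO exceeded siControl by 0.25 on the log2 scale (standard error 0.0600, adjusted p = 0.00388 by Benjamini-Hochberg in edgeR's quasi-likelihood test), with 0.29, 0.23 and 0.24 in the 3 Sets. On the TPM scale the groups overlapped, at 13.0, 13.0 and 12.8 in siControl and 12.5, 13.6 and 14.0 in siNONO. This call was lost with DESeq2 (log2 fold change 0.26, adjusted p = 0.109) and with limma on log2(TPM + 1) (0.047, adjusted p = 0.667). KAT5, which encodes a histone acetyltransferase and overlaps RNASEH2C on the opposite strand over 5600 bases, had a log2 fold change of -0.22 (adjusted p = 0.00185). The estimated count of RNASEH2C was not whole in any of the 6 libraries.

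As a share of the summed TPM of the 3 RNase H2 genes, RNASEH2A made up 58.1 ± 2.17% in siControl and 47.1 ± 2.78% in siNONO (SD, n = 3). The share of RNASEH2B went from 28.9 ± 2.92% to 36.5 ± 3.24%, and that of RNASEH2C from 13.0 ± 0.895% to 16.4 ± 0.777%. None of the 3 shares overlapped between the groups. Since the shares sum to the whole, a lower RNASEH2A raises the other shares without a rise in their level. The mean TPM of RNASEH2B was 29.1 in siControl and 29.8 in siNONO, and that of RNASEH2C 12.9 and 13.4, with overlapping groups. The ratio of RNASEH2A to RNASEH2C was 4.49 ± 0.217 in siControl and 2.88 ± 0.151 in siNONO. For each of these shares and for this ratio, a two-sided exact permutation test over the 6 libraries gave p = 0.1, the smallest p that it can give, so this test, which does not use the Sets, cannot pass a threshold of 0.05 here.

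**Figure D3:**
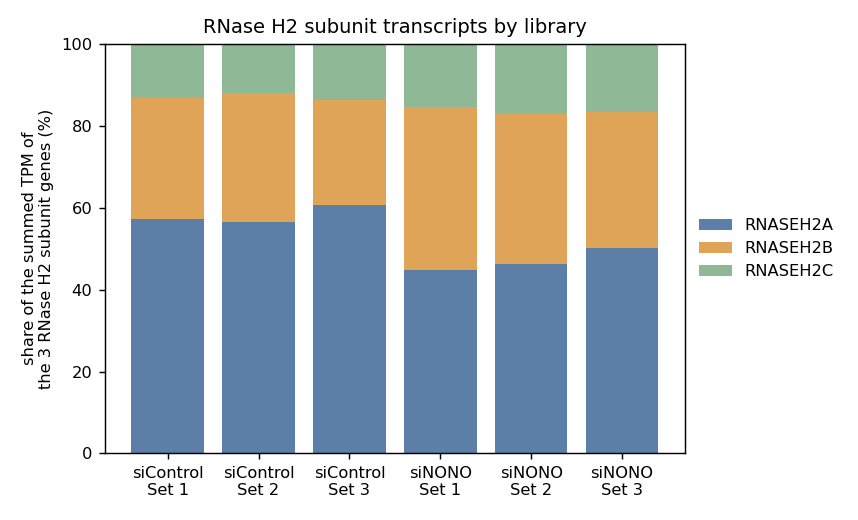
Share of each RNase H2 subunit gene in their summed TPM (vertical axis, percent), as stacked bars with 1 bar per library. RNASEH2A made up 58.1% on average in siControl and 47.1% in siNONO, and the shares of RNASEH2B and RNASEH2C were higher in each siNONO library than in any siControl library. The shares of a bar sum to the whole, and the TPM of RNASEH2B and of RNASEH2C overlapped between groups.

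The genes also differed widely in level. In siControl the order by mean TPM was RNASEH2A (58.0), TBK1 (40.7), RNASEH2B (29.1), STING1 (24.8), SAMHD1 (13.7), RNASEH2C (12.9), TREX1 (6.90), IKBKE (3.67), IFI16 (0.0933) and CGAS (0.0333). Neighbours whose libraries overlapped were RNASEH2B and STING1, SAMHD1 and RNASEH2C, and IFI16 and CGAS. In siNONO the order was RNASEH2A (38.6), TBK1 (37.4), RNASEH2B (29.8), SAMHD1 (27.3), STING1 (14.6), RNASEH2C (13.4), TREX1 (7.71), IKBKE (4.43), IFI16 (0.41) and CGAS (0.00667). There, RNASEH2A overlapped TBK1, RNASEH2B overlapped SAMHD1, and STING1 overlapped RNASEH2C. RNASEH2A thus stood above TBK1 in each siControl library and not beyond the spread in siNONO. In both groups, the RNA of the adaptor, the kinases and the clearance enzymes was measured well above that of the sensors.

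RSEM also gives for each gene an average transcript length weighted by abundance, which moves when the mix of isoforms moves. Of 14129 genes with lengths that could be tested with limma, 0 (0%) differed between the groups at an adjusted p of at most 0.05, and 1196 had an unadjusted p under 0.05. The 8 members tested had adjusted p-values from 0.552 to 0.999. TREX1, with the lowest, was at 1068 ± 29.5 bases in siControl and 997 ± 52.1 bases in siNONO (SD, n = 3), a log2 ratio of -0.10. The lengths of IKBKE were 3005, 2978 and 3148 bases in siControl and 2884, 2953 and 2560 bases in siNONO, and they did not overlap (adjusted p = 0.729 by limma). For RNASEH2B the log2 ratio was -0.21 (adjusted p = 0.628), with a spread between libraries of 122 bases in siControl and 86.5 bases in siNONO. A shift of isoforms was thus not detected for any of the 8. Since the smallest adjusted p over all 14129 genes was 0.525, this says little about whether the isoforms of the 8 moved.

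A further 68 genes around the pathway were grouped by role into 6 lists, and 57 of them were tested. By the same test as above, 24 were higher (42.1%, against 23.2% of all genes) and 14 were lower (24.6%, against 23.4%), and their median log2 fold change was 0.05. The lists were chosen with earlier results of these data known, so the larger share of higher genes does not test the pathway. The shares within each list below also rest on few genes. Most changes were small, and 4 of the 57 were called and reached 1 on the log2 scale, against 489 of 17000 genes. The number of higher genes fell to 9 with limma on log2(TPM + 1).

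Of 14 tested genes that handle cGAMP or assist cGAS, 5 were higher and 3 lower. These are 35.7% and 21.4%, against 23.2% and 23.4% of all genes tested. TRIM14, which encodes a protein that keeps cGAS from degradation, was counted 1435, 1192 and 967 times in siControl and 3371, 3214 and 3528 times in siNONO. The rise was 1.45 on the log2 scale (standard error 0.0387, adjusted p = 4.13e-11 by Benjamini-Hochberg in edgeR's quasi-likelihood test). ZCCHC3, which encodes a cofactor of DNA binding by cGAS and was singled out after its values were seen, was lower, with a log2 fold change of -0.54 (adjusted p = 1.78e-06). Of the 17 genes for STING trafficking and turnover, 8 were higher and 4 lower (47.1% and 23.5%, against the same 23.2% and 23.4%). AP1G1, a subunit of the clathrin adaptor that sorts STING for degradation, had the largest change among them, with a log2 fold change of -0.68 (adjusted p = 9.01e-09).

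Of 8 genes for adaptors and targets of TBK1 and IKKε, 5 were higher and none was lower. These are 62.5% and 0%, against 23.2% and 23.4% of all genes tested. OPTN, an autophagy receptor that TBK1 phosphorylates, had a log2 fold change of 0.52 (adjusted p = 8.35e-06). The scaffold genes AZI2 and TANK, singled out after their values were seen, had log2 fold changes of 0.47 and 0.36 (adjusted p = 3.43e-06 and 6.10e-06). IRF3, the transcription factor downstream of TBK1, had an estimated count of 1794, 1404 and 1208 in siControl against 1499, 1447 and 1689 in siNONO. These groups overlapped (log2 fold change 0.03, adjusted p = 0.614).

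Of 13 genes for other DNA sensors and their partners, 8 were tested, of which 1 was higher and 4 were lower. Those shares of 12.5% and 50% stand against 23.2% and 23.4% of all genes tested. The lowest value was that of POLR3B, a subunit of RNA polymerase III, with a log2 fold change of -0.70 (adjusted p = 1.45e-06). The PYHIN genes AIM2, MNDA and PYHIN1, relatives of IFI16, had 0 counts in all 6 libraries, which allows up to 3 counts in each.

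Of 8 tested genes for other clearance enzymes and Aicardi-Goutières syndrome, 4 were higher and 3 lower. Those shares of 50% and 37.5% stand against 23.2% and 23.4% of all genes tested. IFIH1, the gene of the double-stranded RNA sensor MDA5, was counted 425, 311 and 288 times in siControl and 2238, 1911 and 2260 times in siNONO. Its log2 fold change of 2.61 (standard error 0.0496, adjusted p = 2.79e-12 by Benjamini-Hochberg in edgeR's quasi-likelihood test) exceeded that of SAMHD1. ADAR, the gene of the RNA-editing enzyme that marks self double-stranded RNA and one singled out after its values were seen, had a log2 fold change of 0.72 (adjusted p = 1.92e-09). TREX2, the relative of TREX1, had an estimated count of 38.6, 24.7 and 24.6 in siControl against 18.6, 12.3 and 11.0 in siNONO, without overlap. It fell by 1.11 on the log2 scale (adjusted p = 0.0114), and the call was lost without the siControl library of Set 3 (-0.93, adjusted p = 0.0664) or the siNONO library of Set 3 (-0.94, adjusted p = 0.0582). Both leave-outs take Set 3 out of the blocked comparison, so they are a single check.

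Among 6 transcriptional outputs of DNA sensing, 2 were tested. CCL5, a chemokine gene induced through IRF3 and NF-κB, went from 4, 4 and 3 counts in siControl to 23, 25 and 33 in siNONO, with a log2 fold change of 2.77 (standard error 0.408, adjusted p = 1.19e-04 by edgeR's quasi-likelihood test). CCL5 passed the filter on low counts only through the siNONO libraries, so its call is not independent of being high there. Without that filter its log2 fold change was 2.79 (adjusted p = 5.37e-09 by the same test). That fit also gave smaller adjusted p-values for the called members, such as 1.05e-97 against 2.81e-09 for SAMHD1. The smaller p of CCL5 is thus not firmer evidence. CXCL8, an NF-κB target, had a log2 fold change of 0.04 (adjusted p = 0.828). The others were near 0 counts in siControl. CXCL10 had 0 counts in each siControl library against 9, 4 and 18 in siNONO, and IFNB1 had 0 in each against 0, 3 and 4. IL6 and TNF had 0 to 2 counts in each library.

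**Figure D4:**
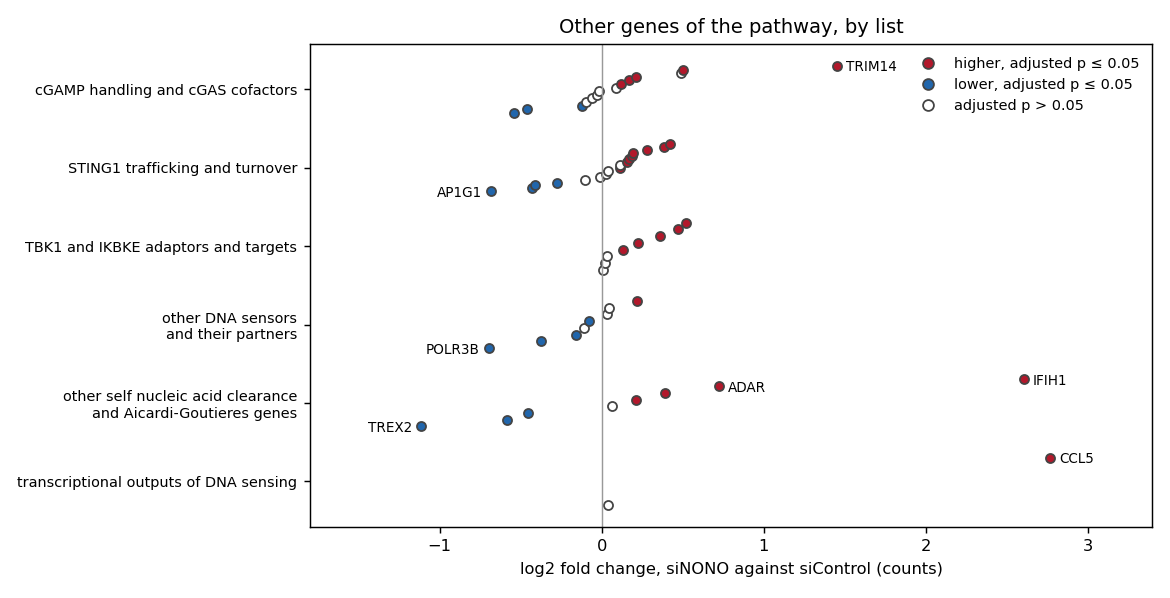
Log2 fold change of siNONO over siControl (horizontal axis) for the 57 tested genes of the 6 lists around the pathway, with 1 point per gene, genes ordered by value within each list along the vertical axis, and points coloured red (higher) or blue (lower) where the adjusted p is at most 0.05 and white otherwise. Most points lie between -1 and 1, and TRIM14, IFIH1 and CCL5 lie above 1 and TREX2 below -1.

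The genes with profiles nearest to those of SAMHD1 and STING1 over the 6 libraries were looked up by the distance of log2 CPM centred on each gene's mean. For SAMHD1 they were HKDC1, CFL1 and PRR15, at distances of 0.109 to 0.126 and with log2 fold changes of 0.97, 1.02 and 1.04. For STING1 they were ID1, CDKN2C and KLRK1, at distances of 0.0847 to 0.121 and with log2 fold changes of -0.64, -0.74 and -0.68. With 6 libraries in 2 groups, such a distance mostly reads the size of the change between the groups.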

How the data were processed

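RNA-seq counts of 3 siControl and 3 siNONO libraries were analysed. Per the study's methods, the authors ran sickle for trimming, STAR for alignment to GENCODE transcripts on GRCh37 and RSEM (version 1.3.1). They deposited, for each library, estimated counts per gene, which are not normalized and share reads that fit several genes, TPM values, scaled for length and library size, and a weighted transcript length in bases. The strand setting is not given in the sources used here.

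From the deposited estimated counts, rounded to whole numbers, siNONO was compared with siControl by edgeR (version 4.0.16, quasi-likelihood F-test in the form of edgeR 3) with TMM scaling and filterByExpr, and with the Set as a block in place of the batch in the study's model. P-values were adjusted by Benjamini-Hochberg over 17000 genes. Standard errors followed from each log2 fold change divided by the root of its F, and 95% intervals used the t quantile at the fit's degrees of freedom. CPM was computed with TMM-scaled library sizes. Lengths were tested on the log2 scale with limma (version 3.58.1). The total count ran from 21765393 to 32659002 per library, and the biological coefficient of variation was 3.51%. Intervals on counts cover counting error only. The methods were tested on simulated data with larger changes than most seen here, which does not show their power for small changes.

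Set numbers, as given by the labels, pair the libraries, since deviations from the group means correlated within each Set, at 0.427, 0.253 and 0.504 over 10840 genes, against -0.437 to 0.160 across Sets. No pair of replicates was within sampling noise. The design text calls the libraries biological replicates, and the labels do not say what a Set is.

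The members and gene lists were chosen with earlier results of these data known. Named outside the 10 genes and NONO were, of each list, members past the threshold with an absolute log2 fold change of at least 1, otherwise the one with the largest change past the threshold, and also IRF3, the 6 outputs and the nearest profiles. Outside this rule, ZCCHC3, AZI2, TANK, ADAR and KRT19 were named after their values were seen, and overlapping and marker genes for their position or role. Gene positions came from a later GENCODE release mapped to GRCh37. The alternatives tried were library size alone, DESeq2's size factors, other filters, no block, the edgeR 4 form, robust dispersions, DESeq2 (version 1.42.0), limma on log2(TPM + 1) and each library left out in turn.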

Additional observations from a re-analysis of the deposited data

How the results depend on the processing

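STING1, SAMHD1 and RNASEH2A kept their direction and their call under all 15 alternatives, with log2 fold changes of -0.72 to -0.62, 0.94 to 1.08 and -0.59 to -0.44. TBK1 and TREX1 were never called. RNASEH2C was no longer called with DESeq2 (0.26) or with limma on log2(TPM + 1) (0.047), so 1 member was higher with DESeq2 and 1 with limma on log2(TPM + 1). Leaving out 1 library at a time gave log2 fold changes of 0.085 to 0.39 for IKBKE and -0.20 to -0.058 for RNASEH2B, with 2 to 4 members higher. In these fits, 3254 to 3858 genes were higher over all genes tested. RNASEH2B, not called, turned to 0.045 with limma on log2(TPM + 1). The 4 higher members, found without the siControl library of Set 1, were IFI16, IKBKE, RNASEH2C and SAMHD1. That fit called 3364 of 17329 genes higher over all genes. There 9 members were tested, since IFI16 passed the filter on low counts through its siNONO libraries. IFI16 likewise entered, and was called higher, without the siControl library of Set 2 or 3 or the siNONO library of Set 2. The cause of the other shifts was not tested. Without the replicate block, 2 members were higher and 2 lower, as with it, and no call on a member changed, while 3096 genes were higher and 3068 lower over all genes. The genes around the pathway that were higher fell to 9 with limma on log2(TPM + 1), which called 1643 genes higher and 3614 lower over all genes, against 3939 and 3985 with edgeR, with a median log2 fold change of -0.07. DESeq2 called 2478 genes higher and 2445 lower over all genes. Depth limits what can be said of CGAS and IFI16. The intervals of TREX1 (-0.20 to 0.41) and IKBKE (-0.046 to 0.46) were wide. Both genes had low counts, and their Sets also differed in sign. The log2 fold changes were -0.13, 0.23 and 0.22 for TREX1 and -0.15, 0.45 and 0.32 for IKBKE. What made these intervals wide was not tested.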
